A study of Homo sapiens with 36 samples.

Results

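The genes of the mitochondrial ribosomal proteins were followed through 6 groups of colorectal cancer cells exposed to chemical inducers of the hypoxia response. Members were the rows of the mRNA count table whose symbol was MRPL or MRPS, a number and at most 1 letter from A to C, which left out pseudogenes and antisense genes and gave 78 of 60591 rows. Of these, 51 encode proteins of the large subunit, among them MRPS30 and MRPS18A despite their names, and 26 encode proteins of the small subunit. MRPS36 carries the name but is a subunit of the 2-oxoglutarate dehydrogenase complex.

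The mRNA was measured in 18 libraries, 3 biological replicates per group, from Caco-2 and HT-29, established human colorectal adenocarcinoma lines. Differentiation of Caco-2 took 21 days, while no such step is given for HT-29, so line and culture state cannot be told apart. Within each line, cells received CoCl2 at 300 µM for 24 h, an oxyquinoline derivative (OD) at 5 µM for 24 h, or solvent alone as control. Either agent blocks the enzymes that hydroxylate hypoxia-inducible factor and so lead to its breakdown, and the comparisons ask how intestinal cells respond when this factor is activated. The labels give 0.5 µl of the solvent dimethyl sulfoxide per ml for control and OD and name none for CoCl2, whereas the methods of the study place the solvent in the CoCl2 medium too and state another concentration of it, so the part of the solvent in the CoCl2 comparisons was not tested. The replicates were not tied to separate cultures or days in the sources used here, so p-values measure the spread between these libraries.

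Mitochondria keep their own ribosome, which translates the few mRNAs encoded by mitochondrial DNA, all of them for subunits of the respiratory chain and ATP synthase. Its RNA comes from mitochondrial DNA, but its proteins are encoded in the nucleus, made in the cytosol and imported. Part of them descend from bacterial ribosomal proteins and part are found only in mitochondria.

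Promoter sequences were available for 69 members and are shown for 4 genes on which the results turn, MRPS26 and MRPS6, which had the highest rises, and MRPL24 and MRPL1, which were among the lowest. Each is the window of 250 bases before to 50 bases after the RefSeq start of the gene on GRCh38.p14, written 5′ to 3′ along the strand of the gene. The windows are chr20:3045802-3046101 (plus strand) for MRPS26, chr21:34073328-34073627 (plus strand) for MRPS6, chr1:156741039-156741338 (minus strand) for MRPL24 and chr4:77862580-77862879 (plus strand) for MRPL1. Capitals mark the motifs found on either strand.
MRPS26: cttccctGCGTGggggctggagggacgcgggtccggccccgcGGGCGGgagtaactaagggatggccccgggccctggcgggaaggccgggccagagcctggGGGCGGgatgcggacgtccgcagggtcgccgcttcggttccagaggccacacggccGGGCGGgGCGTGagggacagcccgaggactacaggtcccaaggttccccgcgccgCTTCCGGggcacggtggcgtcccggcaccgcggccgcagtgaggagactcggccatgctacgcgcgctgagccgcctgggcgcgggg
MRPS6: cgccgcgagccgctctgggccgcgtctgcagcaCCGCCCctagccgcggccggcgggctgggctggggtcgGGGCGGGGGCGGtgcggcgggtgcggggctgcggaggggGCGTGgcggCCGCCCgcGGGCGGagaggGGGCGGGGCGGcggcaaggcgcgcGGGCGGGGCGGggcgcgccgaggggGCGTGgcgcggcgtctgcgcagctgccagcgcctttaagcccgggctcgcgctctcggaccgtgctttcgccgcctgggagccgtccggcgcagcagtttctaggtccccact
MRPL24: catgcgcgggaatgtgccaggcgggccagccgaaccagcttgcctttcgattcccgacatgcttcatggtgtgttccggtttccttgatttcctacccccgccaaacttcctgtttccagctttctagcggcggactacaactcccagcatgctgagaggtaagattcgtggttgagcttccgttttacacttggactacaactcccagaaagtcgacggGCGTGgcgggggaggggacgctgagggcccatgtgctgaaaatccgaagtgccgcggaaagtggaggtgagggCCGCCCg
MRPL1: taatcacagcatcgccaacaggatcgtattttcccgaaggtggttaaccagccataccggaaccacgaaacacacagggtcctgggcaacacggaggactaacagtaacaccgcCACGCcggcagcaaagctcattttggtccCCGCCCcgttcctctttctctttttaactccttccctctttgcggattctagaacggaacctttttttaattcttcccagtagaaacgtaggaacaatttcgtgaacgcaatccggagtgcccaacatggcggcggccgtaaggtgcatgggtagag

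The motifs searched on both strands were the palindromic NRF1 motif and the YY1 motif in their consensus forms, the ETS motif CCGGAAG, which GABPA binds, the E-box CACGTG, which MYC binds, the hypoxia response cores ACGTG and GCGTG, and the GC box GGGCGG. Every E-box holds ACGTG, and neighbouring GC boxes can share a base. The ETS motif stood in 42.0% of the 69 member promoters, against 10.7% of all 27305 promoters and 14.4% of the 15345 promoters of protein-coding genes. The YY1 motif stood in 14.5% of the members, against 0.916% of all and 1.40% of protein-coding promoters, and the NRF1 motif in 11.6%, against 6.28% and 8.60%. The core ACGTG was found in 27.5% of member promoters, against 21.6% and 23.8%, and GCGTG in 56.5%, against 36.3% and 44.3%. The E-box stood in 8.70% of members, against 7.43% and 8.89%, and the GC box in 60.9%, against 44.6% and 59.2%. Of the sequences shown, MRPS26 held 1 ETS motif, 3 GC boxes and 2 copies of GCGTG, MRPS6 held 9 GC boxes and 2 copies of GCGTG, and MRPL24 and MRPL1 each held 1 GC box and 1 GCGTG.

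Total counts ran from 12925719 to 22332639 per library. Of the intestinal markers, CDX2, VIL1, SI and FABP1 were present in both lines, while ALPI and APOA4, markers of mature enterocytes, held 0 to 2 counts per library in HT-29. Levels are given as CPM, counts scaled to a fixed library size after trimmed mean of M values (TMM) factors, which were set within a line. Changes are log2 fold changes with their standard error (SE) and an adjusted p from edgeR's quasi-likelihood test, two-sided, with Benjamini-Hochberg adjustment over all genes tested. A gene is said to be higher or lower when its adjusted p was under 0.05, and to be called when its absolute log2 fold change was also over 1. In such bulk libraries fewer cells of a type and less RNA per cell cannot be told apart.

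In each fit 76 of the 78 members had enough counts to be tested. MRPL53 held 0 counts in all 18 libraries, and 99.4% of its exonic bases lie within exons of other genes, CCDC142 among them. MRPS24 held 74 counts over all libraries and shares 23.2% of its exonic bases with the read-through gene URGCP-MRPS24. On GENCODE release 44 all 78 members matched protein-coding genes, spread over 21 chromosomes, and 49 overlapped another gene, 24 of them on the same strand. The libraries were stranded, but the use of strand in counting was not given in the sources used here, so reads in such overlaps are uncertain. Of the 35 members with pseudogene rows, 1 had pseudogene counts above 5% of its own, MRPS31, which was named after its value was seen.

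Per length, the members stood above the typical gene in both lines. Values in RPKM (reads per kilobase of gene, scaled for library size) came from the deposited log2 table, which had been normalised separately in each line. The median over the 76 members with a value was 14.2 RPKM in Caco-2 control and 16.2 RPKM in HT-29 control, and the medians over all listed genes were 5.27 and 5.69 RPKM. The highest member in Caco-2 control was MRPS35 of the small subunit at 77.6 ± 3.01 RPKM (SD, n = 3), followed by MRPL51 at 68.8 ± 4.01 and MRPL10, which anchors the stalk of the large subunit, at 60.9 ± 1.5. In HT-29 control MRPL45, which ties the large subunit to the inner membrane, led at 79.7 ± 3.32 RPKM, with MRPS35 at 75 ± 4.22 and MRPS34 at 54.2 ± 4.78. The means of MRPL45 and MRPS35 in HT-29 differed by about 1 SD. The lowest were MRPL46, MRPL38 and MRPS28 in both lines, at 0.746 ± 0.0976, 0.792 ± 0.238 and 1.2 ± 0.120 RPKM in Caco-2 control and at 0.624 ± 0.0434, 0.591 ± 0.0411 and 0.942 ± 0.0329 in HT-29 control. Of these, MRPL46 and MRPL38 lay within 1 SD of each other in both lines. MRPL46, MRPL38 and MRPS28 share 11.3%, 41.1% and 35.8% of their exonic bases on the same strand with other genes. The part of this overlap in their low values was not tested.

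The summed count of the members took 0.382% ± 0.00134 of the library in Caco-2 control, 0.339% ± 0.00964 with CoCl2 and 0.338% ± 0.0155 with OD (SD, n = 3). In HT-29 the shares were 0.385% ± 0.00690 in control, 0.264% ± 0.00471 with CoCl2 and 0.288% ± 0.00444 with OD. In both lines every treated library lay below every control library. With 3 libraries against 3 the exact permutation test cannot give a two-sided p below 0.1, so no p is given. The share depends on the most abundant genes of the library, and without the 100 most abundant genes it was 0.480% in Caco-2 control, 0.454% with CoCl2 and 0.426% with OD, and 0.462%, 0.352% and 0.351% in HT-29. The TMM factors, which correct for the composition of a library, were on average 1.12 in control and 0.894 with CoCl2 in Caco-2, while those of HT-29 were 1.19 and 0.770.

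**Figure D1:**
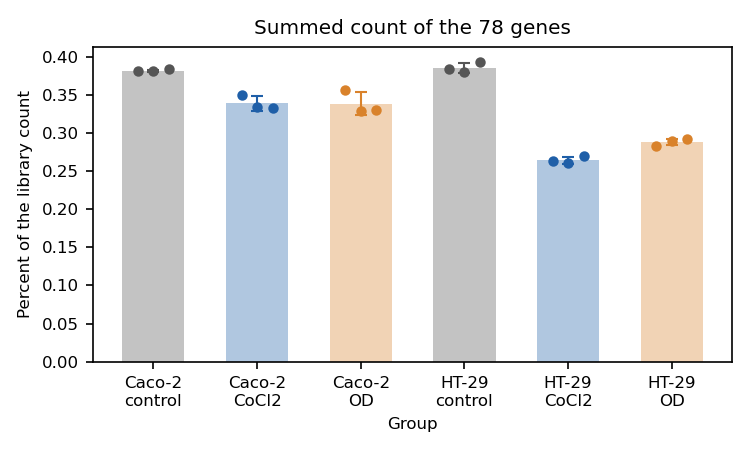
Summed count of the 78 genes as a percent of the library count (vertical axis) in the 6 groups; bars are means of 3 libraries, points are libraries and error bars are SDs. Treated libraries lie below control libraries in both lines, with the lowest mean at 0.264% in HT-29 with CoCl2.

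The changes of the members spread less widely than those of all genes, and with OD in HT-29 most members were lower. There, 50 of 76 members were lower and 9 higher, where 34% of all genes were lower and 34.7% higher. The member median was a log2 fold change of -0.31, beside 0.0057 over all genes. With OD in Caco-2, 20 members were lower and 6 higher (24.7% and 25.7% of all genes), and the medians were -0.059 for members and -0.023 for all genes. Leaving out 1 library moved this member median to -0.17 (OD replicate 1), -0.10 (control replicate 1), -0.039 (control replicate 3), -0.026 (OD replicate 2) and -0.030 (OD replicate 3).

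CoCl2 was followed by changes both ways. In Caco-2, 24 members were higher and 15 lower, where 31.6% and 33.1% of all genes were, and the median was 0.062, beside -0.029 over all genes, and 0.038 without CoCl2 replicate 1. In HT-29, 29 were higher and 29 lower (40.7% and 42.2% of all genes), and the medians were 0.042 and -0.032, the first of them 0.014 without control replicate 1 and 0.080 without CoCl2 replicate 2. From the first to the third quartile the members spanned 0.47 log2 units in Caco-2 and 0.81 in HT-29 with CoCl2, against 1.06 and 1.67 for all genes. With OD they spanned 0.37 and 0.42, against 0.75 and 0.85. The genes set beside the members here were not matched to them for level.

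These directions depend on the scaling. Without TMM factors the median of all genes shifted in Caco-2 by -0.32 for CoCl2 and -0.15 for OD, and in HT-29 by -0.63 and -0.14. On library size alone the member medians were -0.26, -0.21, -0.59 and -0.45 in the same order, so the sign turned for CoCl2 in both lines and stayed negative for OD. The members past the test were then 7 higher and 39 lower, 3 and 35, 7 and 59, and 8 and 59. Of all genes, 18.1% were then higher and 50% lower, 17.1% and 35.2%, 20.9% and 64.3%, and 27.4% and 42.8%. Relative to the median of all genes the members lay at 0.091, -0.037, 0.074 and -0.32 log2 units with TMM factors and at 0.091, -0.038, 0.073 and -0.32 without them. Counts and changes below are on the TMM scaling. A member described as higher with CoCl2 is so relative to the bulk of the genes tested, which need not hold for its share of the library count.

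**Figure D2:**
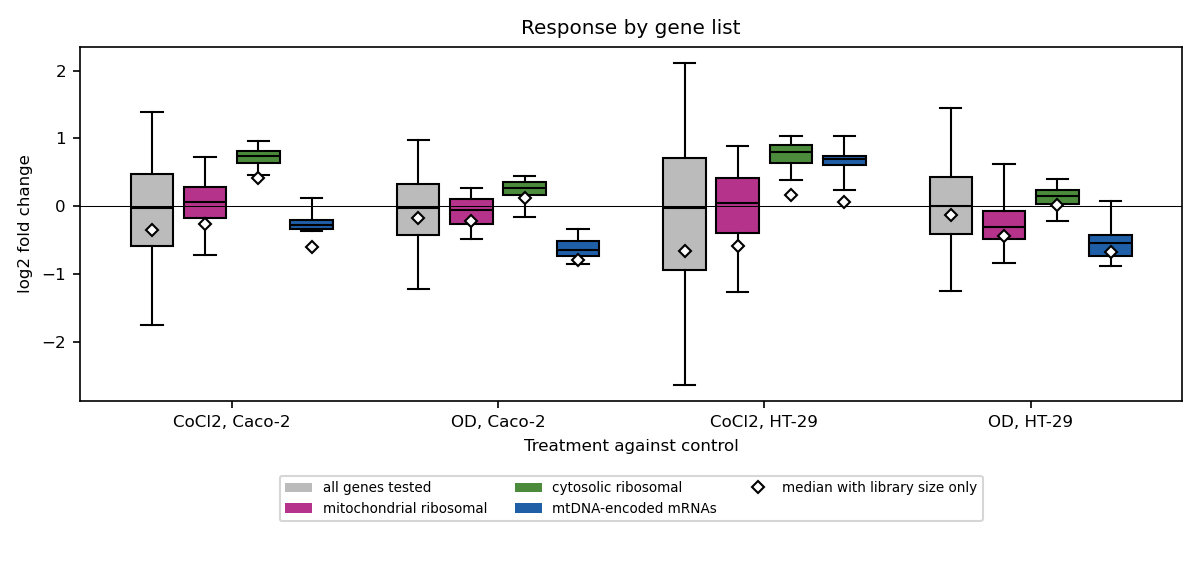
Log2 fold change (vertical axis) against control for all genes tested, the mitochondrial ribosomal genes, the cytosolic ribosomal genes and the mRNAs of mitochondrial DNA, in the 4 comparisons (horizontal axis); boxes show the median and quartiles and whiskers run from the 5th to the 95th percentile. Diamonds give the medians on library size alone, which turn the sign of the mitochondrial ribosomal median for CoCl2 in both lines, and with OD in HT-29 that median was -0.31 on the TMM scaling and the all-gene median 0.0057.

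The 79 genes of cytosolic ribosomal proteins had medians of 0.74 and 0.27 in Caco-2 (CoCl2, OD) and 0.80 and 0.15 in HT-29. Of them, 77, 52, 76 and 46 were higher and 0, 1, 2 and 5 lower. Without TMM factors the medians were 0.42, 0.12, 0.17 and 0.011, and the counts for OD were 13 higher and 3 lower in Caco-2 and 22 higher and 18 lower in HT-29, against 73 and 0 for CoCl2 in Caco-2. HT-29 with CoCl2 then had 51 higher and 9 lower. The 13 mRNAs encoded by mitochondrial DNA, which the mitochondrial ribosome translates, had Caco-2 medians of -0.28 and -0.65 (CoCl2, OD) and HT-29 medians of 0.69 and -0.54. Of these 13, 11 and 12 were lower in Caco-2, while in HT-29 12 were higher with CoCl2 and 10 lower with OD. On library size alone the HT-29 CoCl2 median was 0.060, with 3 higher and 3 lower. MT-CO1 and MT-ND1, for subunits of complexes IV and I, were called higher with CoCl2 in HT-29 at 1.04 ± 0.048 and 1.03 ± 0.060 (log2 fold change ± SE). Neither was called on library size alone, at 0.41 and 0.40, or without HT-29 control replicate 3, at 0.97 and 0.92.

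By the full rule few members were called. With CoCl2 in Caco-2, 1 was called higher and 2 lower, where 9.13% and 14.2% of all genes were called. With OD in Caco-2, 2 were called, both higher, where 4.43% of all genes were called higher and 7.27% lower. In HT-29, 3 were called higher and 6 lower with CoCl2 (17.4% and 23.9%), and 1 higher and 1 lower with OD (9.5% and 7.57%). On library size alone 22 members were called with CoCl2 in HT-29 and 7 in Caco-2, where the medians of all genes were -0.66 and -0.35. The share of all genes called on that scaling is not given, so these counts are not read as particular to the members.

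Of the 30 large subunit proteins with a bacterial counterpart, 7 were higher and 8 lower with CoCl2 in Caco-2 (31.6% and 33.1% of all genes), and 12 higher and 11 lower in HT-29 (40.7% and 42.2%). With OD, 2 were higher and 9 lower in Caco-2 (25.7% and 24.7%), and 3 higher and 23 lower in HT-29 (34.7% and 34%). Without TMM factors the numbers (higher and lower) became 3 and 18, then 3 and 23, for CoCl2 and 1 and 15, then 3 and 25, for OD. The shares of all genes were then 18.1% and 50%, then 20.9% and 64.3%, for CoCl2, and 17.1% and 35.2%, then 27.4% and 42.8%, for OD. MRPL24 is a core protein near the exit of the tunnel through which the new chain leaves. It lies at chr1:156737303-156741590 (GRCh38, minus strand) and overlaps no other gene. Its levels in Caco-2 were 30.5, 32.5 and 31.2 CPM in control, 12.1, 14 and 11.8 with CoCl2 and 18.6, 15.6 and 18.2 with OD. In HT-29 they were 28.3, 32.3 and 26.4 CPM in control, 10.3, 9.87 and 11.1 with CoCl2 and 18.7, 19.2 and 18.7 with OD. In each line the groups did not overlap, with control highest and CoCl2 lowest. With CoCl2 the log2 fold changes were -1.32 ± 0.11 in Caco-2 and -1.47 ± 0.090 in HT-29 (adjusted p = 2.95e-10 and 2.25e-14), and with OD -0.84 ± 0.11 and -0.62 ± 0.077 (adjusted p = 6.01e-07 and 7.89e-08).

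MRPL12, the stalk protein that recruits elongation factors and is also reported to bind the mitochondrial RNA polymerase, held 6.57, 8.37 and 7.12 CPM in Caco-2 control, 3.16, 3.12 and 2.05 with CoCl2 and 3.89, 4.62 and 7.11 with OD. In HT-29 it held 11.7, 11.1 and 11.6 CPM in control, 5.52, 3.94 and 5.01 with CoCl2 and 8.63, 10.8 and 9.14 with OD. All CoCl2 libraries lay below control in both lines, while 1 OD library of Caco-2 reached into the control range. With CoCl2 the log2 fold changes were -1.43 ± 0.23 in Caco-2 (adjusted p = 6.11e-06) and -1.26 ± 0.13 in HT-29 (adjusted p = 1.09e-09). Its counts were low, from 38 to 310 per library, and 69.5% of its exonic bases are shared on the same strand with another annotated gene. MRPL10, which anchors that stalk, was higher with CoCl2 at 0.74 ± 0.072 in Caco-2 and at 0.64 ± 0.052 in HT-29 (0.42 and 0.0074 on library size alone), and its OD changes of -0.041 ± 0.073 and -0.086 ± 0.053 did not pass the test, which they did on library size alone at -0.19 and -0.22.

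MRPL1 forms the mobile stalk beside the site where spent tRNAs leave the ribosome. In Caco-2 it held 20.1, 20.1 and 24.4 CPM in control, 11.2, 10.0 and 13 with CoCl2 and 16.3, 17.3 and 17.2 with OD. In HT-29 it held 34.5, 33.5 and 31.4 CPM in control, 14.9, 16.8 and 15.5 with CoCl2 and 11, 12 and 10.6 with OD. The groups of each line did not overlap, and the lowest levels came with CoCl2 for Caco-2 and with OD for HT-29. In HT-29 the log2 fold change was -1.56 ± 0.077 with OD (adjusted p = 8.00e-16) and -1.07 ± 0.077 with CoCl2 (adjusted p = 8.23e-13). In Caco-2 it was -0.90 ± 0.12 with CoCl2 and -0.35 ± 0.12 with OD, and without Caco-2 control replicate 3 the latter was -0.25 and no longer past the test.

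MRPL16, which sits near the peptidyl transferase centre, held 42.7, 41.8 and 39.3 CPM in HT-29 control, 16.1, 16.8 and 16.5 with CoCl2 and 26.8, 28.2 and 26.8 with OD, without overlap. Its log2 fold change with CoCl2 was -1.32 ± 0.069 (adjusted p = 6.95e-16), and in Caco-2 it was -0.52 ± 0.094. MRPL15, another core protein, held 46, 44.8 and 53.6 CPM in HT-29 control and 16.5, 19.3 and 18.8 with CoCl2. The groups were again apart, with a log2 fold change of -1.41 ± 0.085 (adjusted p = 1.67e-14), beside -0.20 ± 0.090 in Caco-2, where it did not pass the test (adjusted p = 0.0505) but did on library size alone at -0.52.

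MRPL32 must be cut by a protease of the inner membrane before it joins the ribosome. It held 37.4, 38.7 and 43.9 CPM in Caco-2 control and 66.5, 63.4 and 62.1 with CoCl2. In HT-29 it held 43.7, 44.6 and 42.1 CPM in control, 92.1, 96.3 and 96.4 with CoCl2 and 32.7, 34 and 36.8 with OD. All CoCl2 libraries lay above control, and in HT-29 the OD libraries lay below it. The log2 fold changes with CoCl2 were 0.68 ± 0.094 in Caco-2 and 1.13 ± 0.054 in HT-29 (adjusted p = 9.26e-17), and on library size alone the HT-29 change was 0.50 and no longer called.

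MRPL55 was the member called higher with OD in HT-29. Its levels there were 11.7, 13.2 and 14.2 CPM in control, 25.2, 23.3 and 23.4 with CoCl2 and 27.2, 26.7 and 27.2 with OD, so both treated groups lay above control. The OD change was 1.04 ± 0.076 on the log2 scale (adjusted p = 3.29e-12), and without HT-29 control replicate 1 it was 0.97 and no longer called. Nor was it called on library size alone, at 0.90. In Caco-2 with OD it was 0.050 ± 0.12. MRPL34 came next in HT-29 with OD at 0.74 ± 0.097. MRPL3 and MRPL20 were among the lower ones with OD in HT-29, at -0.87 ± 0.048 and -0.84 ± 0.060, and MRPL11, at the base of the stalk, was lower at -0.52 ± 0.057.

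Other conserved members of the large subunit moved less. MRPL2 was higher with CoCl2 at 0.71 ± 0.18 in Caco-2 and at 0.75 ± 0.18 in HT-29 (0.39 and 0.12 on library size alone, not past the test). It held 1361 counts over all libraries and shares 35% of its exonic bases with other genes, 29.2% on the same strand. MRPL14 was higher with OD at 0.30 ± 0.095 in Caco-2 and 0.35 ± 0.063 in HT-29. Its Caco-2 change on library size alone was 0.15 and not past the test. With OD in Caco-2 the lowest after MRPL24 were MRPL19 at -0.59 ± 0.091 and MRPL30 at -0.58 ± 0.092. MRPL23 was lower with CoCl2 in Caco-2 at -0.71 ± 0.12 and higher in HT-29 at 0.35 ± 0.088, where library size alone gave -0.28.

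**Figure D3:**
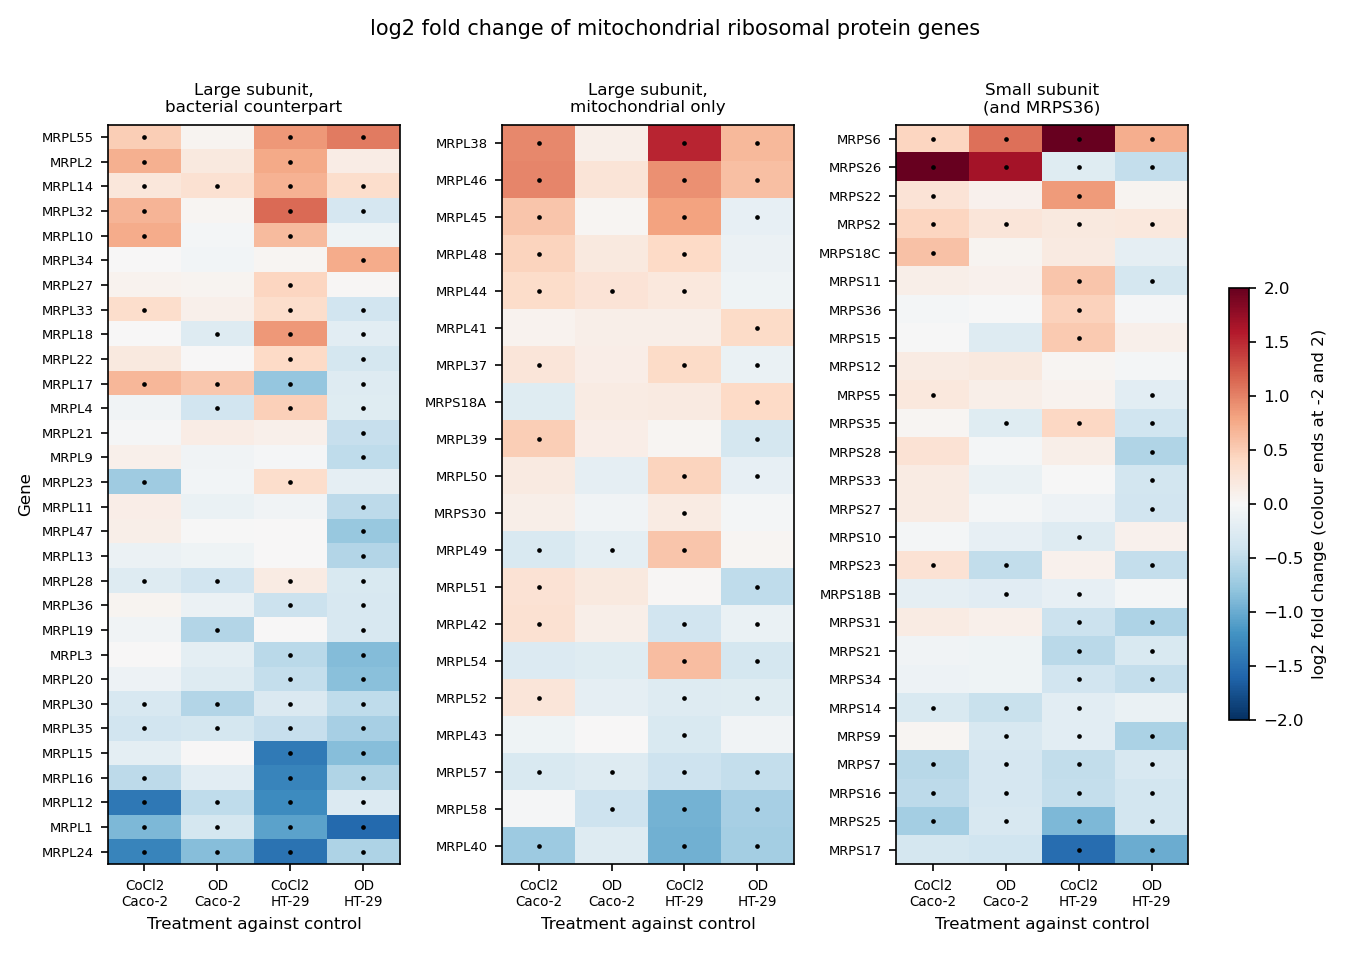
Log2 fold change against control on the TMM scaling (colour, ending at -2 and 2) of the 76 tested genes (rows, by subunit and origin) in the 4 comparisons (columns); dots mark genes past the test. MRPS26 is red in the Caco-2 columns (2.02 and 1.66), MRPL24 is blue throughout, and the OD column of HT-29 is mostly blue, with 50 genes lower.

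Of the 20 tested large subunit proteins found only in mitochondria, 10 were higher and 3 lower with CoCl2 in Caco-2 (31.6% and 33.1% of all genes) and 10 higher and 6 lower in HT-29 (40.7% and 42.2%). On library size alone 3 were higher and 7 lower (18.1% and 50% of all genes), then 2 and 15 (20.9% and 64.3%). With OD, 1 was higher and 3 lower in Caco-2 (25.7% and 24.7%), and 4 higher and 11 lower in HT-29 (34.7% and 34%). MRPL38, part of the central protuberance, held 2.06, 1.8 and 1.87 CPM in HT-29 control and 6.41, 5.25 and 4.77 with CoCl2, without overlap. The log2 fold change was 1.52 ± 0.18 (adjusted p = 9.66e-09), and in Caco-2 it was 0.97 ± 0.23. MRPL38 had 31 to 110 counts per library, shares 45.1% of its exonic bases with other genes, and was no longer called on library size alone, at 0.89.

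MRPL46 was higher with CoCl2 at 0.98 ± 0.18 in Caco-2 and at 0.91 ± 0.14 in HT-29 (0.28 on library size alone, not past the test), and MRPL45, the membrane tether, at 0.55 ± 0.079 and 0.80 ± 0.052. MRPL40 was lower with CoCl2 at -0.73 ± 0.13 and -0.96 ± 0.069, and with OD in HT-29 at -0.68 ± 0.064. MRPL58, a peptidyl-tRNA hydrolase that frees stalled ribosomes and is itself a subunit, held 29.8, 29.3 and 29.1 CPM in HT-29 control, 13.9, 15.2 and 16.7 with CoCl2 and 18.4, 18 and 19.1 with OD. These groups did not overlap, with log2 fold changes of -0.95 ± 0.076 and -0.67 ± 0.070. MRPL44, which has a ribonuclease fold, had CoCl2 changes of 0.37 ± 0.082 in Caco-2 and 0.21 ± 0.067 in HT-29, both past the test, and on library size alone these were 0.047, not past the test, and -0.42. MRPS30 and MRPS18A, the large subunit proteins with small subunit names, were at -0.040 ± 0.052 and 0.40 ± 0.087 with OD in HT-29, of which the second passed the test, as did the first on library size alone at -0.18. MRPS18A shares 50.9% of its exonic bases with RSPH9 on the opposite strand.

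Of the 15 tested small subunit proteins with a bacterial counterpart, 4 were higher and 3 lower with CoCl2 in Caco-2 (31.6% and 33.1% of all genes) and 4 higher and 7 lower in HT-29 (40.7% and 42.2%). With OD, 2 were higher and 4 lower in Caco-2 (25.7% and 24.7%), and 2 higher and 8 lower in HT-29 (34.7% and 34%). Without TMM factors the numbers (higher and lower) became 0 and 8, then 1 and 12, for CoCl2 and 1 and 7, then 1 and 10, for OD. The shares of all genes were then 18.1% and 50%, then 20.9% and 64.3%, for CoCl2, and 17.1% and 35.2%, then 27.4% and 42.8%, for OD. MRPS6 had the highest rises of these. In Caco-2 it held 37.2, 35.5 and 33.9 CPM in control, 47.7, 46.8 and 49.4 with CoCl2 and 89.4, 71 and 67.8 with OD. In HT-29 it held 15.2, 16.1 and 15.8 CPM in control, 70.3, 63.9 and 68.4 with CoCl2 and 29.1, 22.5 and 26.2 with OD. The groups of each line did not overlap, with OD highest in Caco-2 and CoCl2 highest in HT-29.

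The MRPS6 log2 fold changes in Caco-2 were 0.43 ± 0.097 for CoCl2 (0.11 on library size alone, not past the test) and 1.10 ± 0.095 for OD. In HT-29 they were 2.10 ± 0.075 for CoCl2 and 0.73 ± 0.081 for OD. The adjusted p of the called changes were 1.25e-09 (OD, Caco-2) and 1.69e-19 (CoCl2, HT-29). Without Caco-2 OD replicate 1, its highest library there, the OD change in Caco-2 was 0.96 and no longer called. Nor was it called on library size alone, at 0.94. MRPS6 lies at chr21:34073224-34143034 (GRCh38, plus strand) and shares 9.48% of its exonic bases on the same strand with other genes. Of these, SLC5A3, which takes up the osmolyte myo-inositol, changed by 1.13 ± 0.093 and 0.86 ± 0.093 in Caco-2 (CoCl2, OD) and by 2.26 ± 0.050 and 0.66 ± 0.051 in HT-29. The part of shared reads in the MRPS6 values was not tested.

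MRPS17 held 7.8, 7.64 and 7.65 CPM in HT-29 control, 2.98, 2.21 and 2.88 with CoCl2 and 3.46, 4.13 and 4.04 with OD. The groups did not overlap, with log2 fold changes of -1.52 ± 0.15 (adjusted p = 4.87e-10) and -0.99 ± 0.13 (adjusted p = 1.51e-07). In Caco-2 the changes of -0.35 ± 0.19 and -0.40 ± 0.19 did not pass the test, which they did on library size alone at -0.67 and -0.55. MRPS17 shares 25% of its exonic bases on the same strand with other genes, NIPSNAP2 among them, which changed by -1.01 ± 0.074 with CoCl2 in HT-29. MRPS16 was lower with CoCl2 at -0.53 ± 0.077 in Caco-2 and -0.47 ± 0.052 in HT-29. MRPS12, at the decoding centre, passed the test in none of the 4 comparisons with control, its log2 fold changes lying between -0.044 and 0.19, while on library size alone it was lower in HT-29 with CoCl2 at -0.59 and with OD at -0.18.

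Of the 10 small subunit proteins found only in mitochondria, 3 were higher and 1 lower with CoCl2 in Caco-2 (31.6% and 33.1% of all genes) and 2 higher and 5 lower in HT-29 (40.7% and 42.2%). With OD, 1 was higher and 4 lower in Caco-2 (25.7% and 24.7%), and 8 were lower in HT-29 (34%). Without TMM factors the numbers (higher and lower) became 1 and 5, then 1 and 9, for CoCl2 and 1 and 6, then 0 and 9, for OD. The shares of all genes were then 18.1% and 50%, then 20.9% and 64.3%, for CoCl2, and 17.1% and 35.2%, then 27.4% and 42.8%, for OD. MRPS26 lies at chr20:3046052-3048250 (GRCh38, plus strand), with no overlapping gene and no pseudogene row. In Caco-2 it held 45, 52.7 and 47.7 CPM in control, 227, 189 and 176 with CoCl2 and 152, 153 and 154 with OD. In HT-29 it held 21.5, 19.2 and 20.5 CPM in control, 17.2, 16.7 and 18 with CoCl2 and 13.9, 15.2 and 14.9 with OD. Treated libraries lay above control in Caco-2 and below control in HT-29, without overlap.

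The MRPS26 log2 fold changes in Caco-2 were 2.02 ± 0.091 with CoCl2 (adjusted p = 1.51e-15) and 1.66 ± 0.090 with OD (adjusted p = 2.00e-13), a 4.06-fold and a 3.16-fold rise. In HT-29 they were -0.24 ± 0.080 (adjusted p = 0.00717) and -0.48 ± 0.077 (adjusted p = 4.98e-06). Per length MRPS26 went from 48.7 ± 3.95 RPKM in Caco-2 control to 193 ± 26.7 with CoCl2 and 150.2 ± 1.1 with OD, the highest mean of any member in either treated group. MRPS25 was lower with CoCl2 in both lines, at -0.68 ± 0.080 and -0.89 ± 0.084. It shares 45.9% of its exonic bases with other genes (11.3% on the same strand), and MRPS22 shares 42.8% (0.0% on the same strand). MRPS22 was higher with CoCl2 at 0.27 ± 0.11 in Caco-2 and at 0.86 ± 0.062 in HT-29, and on library size alone the Caco-2 value was -0.052 and the HT-29 value 0.23. The Caco-2 change also did not pass the test without control replicate 2 or 3 or CoCl2 replicate 3, at 0.23, 0.24 and 0.23. MRPS23 was lower with OD at -0.49 ± 0.085 in Caco-2 and -0.47 ± 0.061 in HT-29.

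MRPS36, the dehydrogenase subunit, held 15.9, 15.4 and 19.6 CPM in HT-29 control and 21.3, 23.5 and 26 with CoCl2, a log2 fold change of 0.45 ± 0.097 (adjusted p = 0.00012) that was -0.18 on library size alone.

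**Figure D4:**
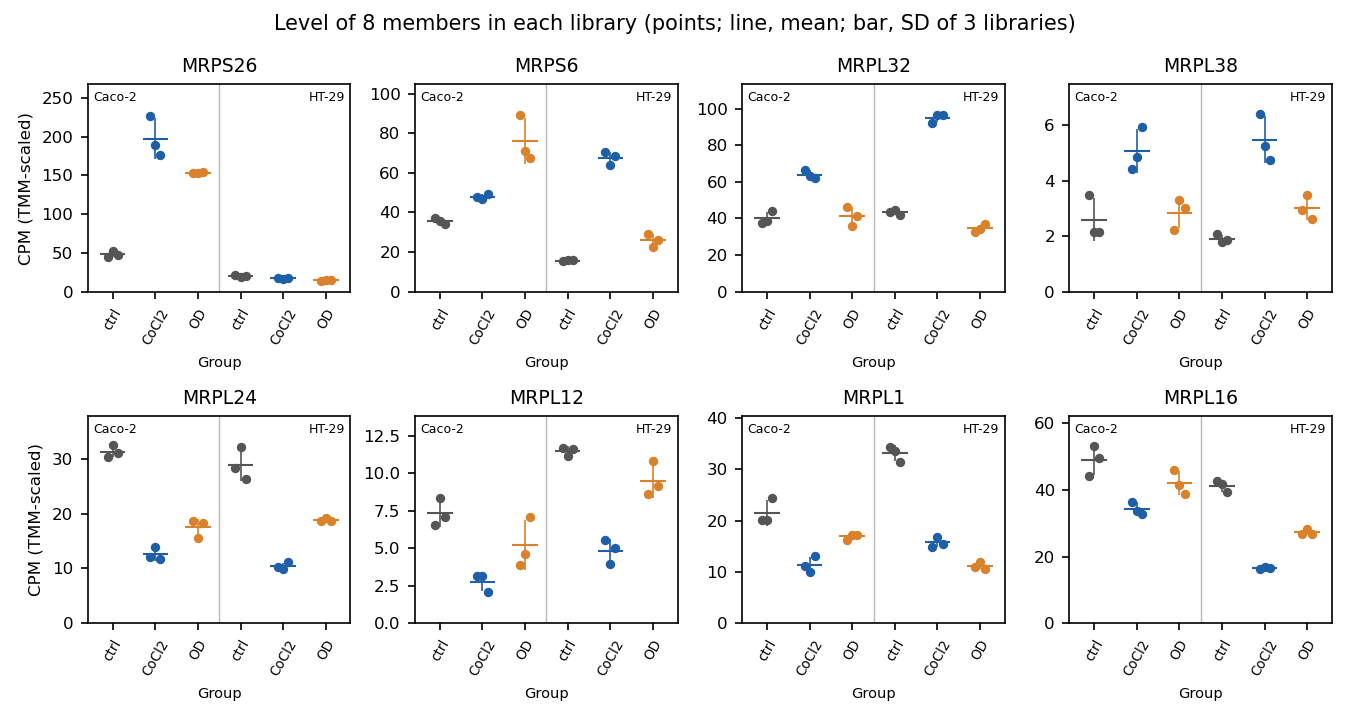
CPM on TMM-scaled library sizes, set within each line (vertical axes, each from 0), of 8 genes in each library of the 6 groups; points are libraries, lines are means and bars are SDs of 3 libraries. MRPS26 is high in the treated Caco-2 libraries and not in HT-29, and MRPL24 lies below control in every treated group.

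When the agents were compared directly, 48 members were higher with CoCl2 than with OD in HT-29 and 19 lower, but on library size alone 14 were higher and 38 lower. Of all genes, 17.9% were higher and 62.8% lower on library size alone. On the TMM scaling 37.1% of all genes were higher and 40.6% lower, and the medians were 0.34 for members and -0.066 for all genes. MRPL32 was called higher at 1.46 ± 0.055, MRPS6 at 1.38 ± 0.071 and MRPL18, of the central protuberance, at 1.09 ± 0.056, where 10.8% of all genes were called higher and 19.2% lower. None of these calls remained on library size alone, at 0.96, 0.88 and 0.59. MRPL18 held 35.7, 38 and 38.5 CPM in HT-29 control, 66.6, 70.1 and 69.1 with CoCl2 and 31.4, 33.2 and 32.3 with OD, without overlap. In Caco-2, 25 members were higher with CoCl2 than with OD and 10 lower (24.4% and 25.2% of all genes). On library size alone 9 were higher and 16 lower (15.6% and 36.2% of all genes). By edgeR or DESeq2 0 were called, where edgeR called 11.7% of all genes. In edgeR 40 members had an unadjusted p under 0.05.

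The lines were compared in 1 fit over all 18 libraries, as the HT-29 response less the Caco-2 response. For CoCl2, 14 members had a higher response in HT-29 and 26 a lower one, where 21.1% and 28.6% of all genes did, with medians of -0.18 for members and -0.13 for all genes. With DESeq2's size factors the split was 19 higher and 15 lower (24.6% and 24.6% of all genes). On library size alone it was 5 and 42 (14.9% and 36.6% of all genes). Called were 1 higher and 5 lower (7.79% and 13.8% of all genes). MRPS26 differed most at -2.37 ± 0.12 (adjusted p = 2.76e-17), followed by MRPL17 at -1.53 ± 0.12, MRPL15 at -1.31 ± 0.13, MRPS17 at -1.27 ± 0.24 and MRPL58 at -1.02 ± 0.14, and MRPS6 differed the other way at 1.56 ± 0.13. MRPL58 was no longer called without Caco-2 control replicate 1, Caco-2 CoCl2 replicate 1 or HT-29 CoCl2 replicate 1, at -0.995, -0.89 and -0.96. Nor was it called with DESeq2's size factors, at -0.91, or with DESeq2, at -0.92.

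MRPL17, near the exit of the peptide tunnel, held 48.2, 45.1 and 47.8 CPM in Caco-2 control and 80.7, 69.3 and 72.7 with CoCl2. In HT-29 it held 72.2, 78.8 and 71 CPM in control and 43.8, 42.6 and 44 with CoCl2. The groups did not overlap in either line, and the log2 fold changes of 0.66 ± 0.095 and -0.77 ± 0.056 had opposite signs, which library size alone kept at 0.34 and -1.40. With OD the MRPL17 changes were 0.54 ± 0.095 in Caco-2 and -0.26 ± 0.052 in HT-29.

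For OD, 4 members had a higher response in HT-29 and 30 a lower one, where 20.9% and 22% of all genes did, with medians of -0.23 for members and 0.011 for all genes. Without Caco-2 OD replicate 1 the member median was -0.12. MRPS26 was called lower at -2.16 ± 0.12 (adjusted p = 5.70e-16) and MRPL1 at -1.24 ± 0.14 (adjusted p = 6.39e-09), where 6.24% of all genes were called lower and 8.96% higher.

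Across the 76 members the CoCl2 changes of the lines correlated with Pearson's r = 0.564 and Spearman's rho = 0.563, and the OD changes with r = 0.366 and rho = 0.457. These describe the genes, which share libraries within a line and are not independent replicates. With CoCl2, 34 members passed the test in both lines, 15 of them higher in both, 12 lower in both and 7 in opposite directions, MRPS26, MRPL17 and MRPL23 among them. Of all genes tested in both lines, 57.6% passed in both, 25.9% higher, 22.8% lower and 8.91% in opposite directions, where the members make 44.7%, 19.7%, 15.8% and 9.21%. With OD, 22 passed in both, 17 of them lower in both, 3 higher in both (MRPL14, MRPS6 and MRPS2, the last named after its values were seen and past the test in neither line on library size alone) and 2 in opposite directions (MRPL17 and MRPS26). The shares in that order (both, lower, higher, opposite) were 28.9%, 22.4%, 3.95% and 2.63% of the members and 38.4%, 12.1%, 14.7% and 11.6% of all genes.

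**Figure D5:**
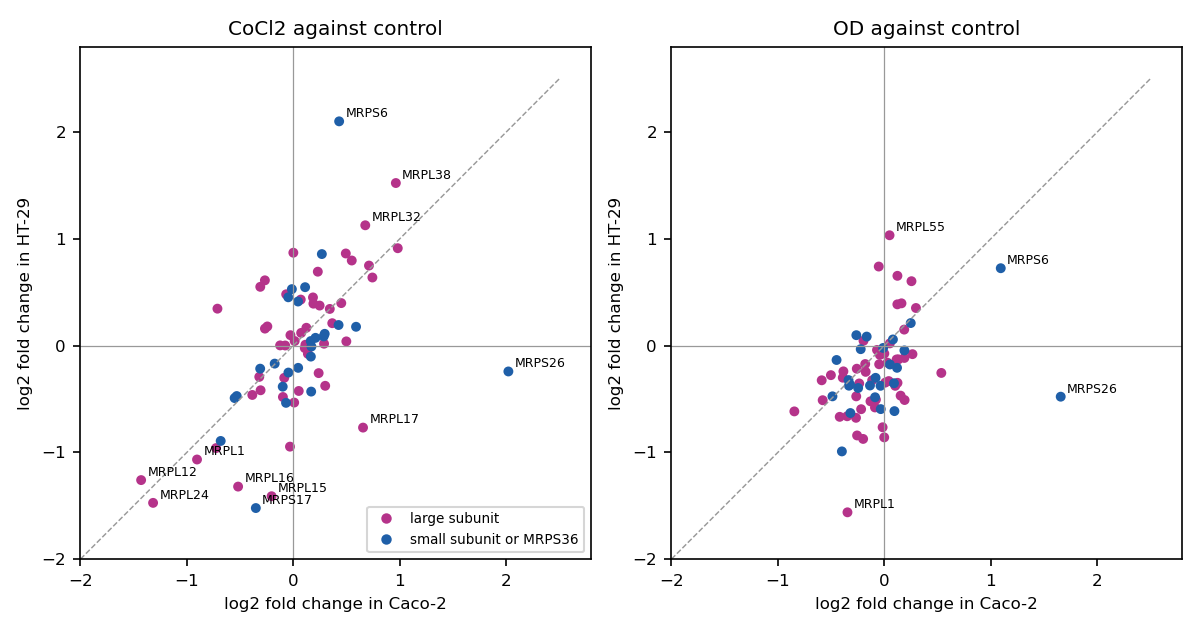
Log2 fold change against control on the TMM scaling in Caco-2 (horizontal axis) and HT-29 (vertical axis) of each tested gene, for CoCl2 (left) and OD (right); colours give the subunit and the dashed line marks equal change. MRPS26 lies far to the right at small negative values on the vertical axis in both panels (-0.24 and -0.48).

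The control cells of the lines also differed in member levels. HT-29 was higher for 27 members and lower for 26, where 39.5% and 39.6% of all genes were, with a member median of -0.015 log2 units. Called were 5 higher and 7 lower in HT-29 (21.6% and 24.2% of all genes). MRPS21 was higher at 2.05 ± 0.11, MRPL13 at 1.61 ± 0.080 and MRPS11 at 1.45 ± 0.13. MRPL10 was lower at -1.76 ± 0.064, MRPL27 at -1.42 ± 0.076 and MRPS25 at -1.31 ± 0.076.

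Of 5 small and large subunit genes with other names, 1 was called. DAP3, a GTP-binding protein of the small subunit, held 151, 156 and 163 CPM in Caco-2 control and 351, 359 and 376 with CoCl2, and in HT-29 124, 119.6 and 125 CPM and then 489, 492 and 480.4. The groups did not overlap, and the log2 fold changes were 1.21 ± 0.076 and 1.99 ± 0.045 (adjusted p = 1.05e-12 and 9.59e-24). The Caco-2 change was 0.89 and not called on library size alone. With OD the changes were 0.044 ± 0.076 and -0.044 ± 0.046 and did not pass the test, though the HT-29 one did on library size alone at -0.18.

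Of the mitochondrial translation factors tested (15 in Caco-2, 16 in HT-29), 8 were lower and 2 higher with CoCl2 in Caco-2, and 8 lower and 5 higher in HT-29. With OD, 6 were lower in Caco-2 and 14 in HT-29. With library size as the only scaling these counts were 11 lower and 0 higher, then 15 and 1, for CoCl2, and 11 and 15 lower for OD. MTFMT, which formylates the initiator tRNA, and the release factor MTRF1 were called lower with CoCl2 in HT-29, at -1.23 ± 0.11 and -1.19 ± 0.12. PDF, which takes the formyl group off new chains, was also called lower there, on 24 to 27 counts per library in control and 2 to 3 with CoCl2, too few for a fold change to be given. Of 26 assembly factors tested, 8 were lower and 5 higher with CoCl2 in Caco-2, and for HT-29 the numbers were 12 and 7. With OD, 8 were lower and 0 higher in Caco-2, while HT-29 had 14 lower and 2 higher. The same counts with library size as the only scaling were 15 and 0, then 22 and 1, for CoCl2, and 12 and 0, then 17 and 2, for OD. MRM1, which methylates the RNA of the large subunit, was lower with CoCl2 at -2.001 ± 0.189 in Caco-2 and at -3.35 ± 0.17 in HT-29, and with OD at -1.03 ± 0.17 and -0.82 ± 0.11. DDX28, a helicase of large subunit assembly, was lower with CoCl2 at -1.40 ± 0.13 and -1.10 ± 0.13.

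Regulators of nuclear genes for mitochondria were followed beside the members. MYC, which drives ribosome and mitochondrial genes, changed by 1.23 ± 0.090 and 0.28 ± 0.091 in Caco-2 (CoCl2, OD) and by -1.87 ± 0.054 and -1.12 ± 0.050 in HT-29. The MYC change with OD in Caco-2 no longer passed the test on library size alone (0.12) or without Caco-2 control replicate 2 or OD replicate 1 (both 0.21). MXI1, its antagonist, changed by 1.81 ± 0.084, 1.45 ± 0.084, 1.60 ± 0.049 and 0.38 ± 0.050 in the same order. NRF1, an activator of respiratory genes, was at 0.68 ± 0.12 and 0.50 ± 0.12 in Caco-2 and at -0.087 ± 0.079 (not past the test, but -0.72 and past it on library size alone) and -0.60 ± 0.079 in HT-29. GABPA, which binds the ETS motif, was lower with OD in HT-29, at -0.41 ± 0.083. YY1 was higher in Caco-2 at 0.60 ± 0.074 and 0.51 ± 0.074 and, on the TMM scaling, with CoCl2 in HT-29. ESRRA was higher with OD in HT-29 at 0.42 ± 0.060. PPARGC1B was at -0.99 ± 0.16 and 1.14 ± 0.11 in HT-29 (CoCl2, OD). PPRC1, a coactivator, was at -1.01 ± 0.061 and -0.42 ± 0.056 in HT-29 and was higher with OD in Caco-2. PPARGC1A, a related coactivator with too few counts to test in Caco-2, was at 1.23 ± 0.30 and 1.88 ± 0.26 in HT-29 on 13 to 57 counts per library. Its CoCl2 change was 0.61 and not past the test on library size alone. Of 9 genes for the copying and transcription of mitochondrial DNA, 2 were higher and 6 lower with CoCl2 in HT-29, and 3 and 6 with OD, while in Caco-2 the numbers were 2 and 2, then 1 and 3. Beside this list and the regulators, 40.7% of all genes were higher and 42.2% lower with CoCl2 in HT-29, and 34.7% and 34% with OD. In Caco-2 the shares were 31.6% and 33.1%, then 25.7% and 24.7%. TFAM, which packs mitochondrial DNA and starts its transcription, was lower in HT-29 at -0.74 ± 0.056 and -1.19 ± 0.056, and TWNK, the helicase of its replication, at -1.61 ± 0.080 and -1.14 ± 0.071. POLRMT, the mitochondrial RNA polymerase, was higher in HT-29 at 0.85 ± 0.073 and 0.45 ± 0.073, and POLG, the DNA polymerase, at 0.84 ± 0.050 and 0.58 ± 0.050, of which the CoCl2 values were 0.22 and 0.20 on library size alone. In Caco-2 TFAM was also lower with CoCl2 and TWNK with OD, and POLRMT was higher with CoCl2 and POLG with OD. On library size alone 0 of the 9 genes were higher with CoCl2 in Caco-2, where 18.1% of all genes were. The part of these regulators in the member values was not tested.

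Among members with a promoter sequence, the ETS motif stood in 19 of 45 that were lower with OD in HT-29, in 2 of 9 that were higher and in 7 of 13 that did not pass the test. The core ACGTG stood in 13 of the 45, 1 of the 9 and 5 of the 13. With CoCl2 in HT-29, ACGTG stood in 9 of 25 higher, 7 of 27 lower and 3 of 15 other members. These are counts of letters in a window, with no test.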

How the data were processed

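Of 36 libraries in the series, the 18 mRNA libraries were used here, 3 per group in 6 groups read from the sample labels. The authors deposited raw counts per gene symbol and a log2 table. Per the labels and methods, reads were trimmed with cutadapt 2.10, checked with FastQC 0.11.9 and aligned to the human genome with STAR 2.7.5b, and edgeR 3.30.3 is also named; the counting tool and its strand setting were not given in the sources used here. The deposited log2 values are log2(RPKM + 1) on TMM library sizes set within each line, as tested on the counts (coefficient of variation 1.30% and 2.85%), and were turned back to RPKM for levels per length. Total counts ran from 12925719 to 22332639 per library, and members with few counts are the least precise.

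Counts were fitted in edgeR 4.0.16 (R 4.3.3) with filterByExpr, TMM factors and the quasi-likelihood test, over the 9 libraries of a line (16034 genes tested in Caco-2, 15812 in HT-29) or over all 18 (17921 genes) for differences between lines. Adjusted p-values are Benjamini-Hochberg over all genes tested; the limits were 0.05 and an absolute log2 fold change of 1. Alternatives were library size alone, DESeq2's size factors, DESeq2 1.42.0, no filter, all libraries in 1 fit, limma 3.58.1 on the deposited values with a pseudocount of 1 or 0.1, a replicate block and leaving out each library. Scripts were tested on simulated data. Members and gene lists were chosen with earlier results of these data known. Members could be named if they were called in any of the 9 comparisons, had one of the 5 highest or lowest changes against control (3 in the other comparisons) at a mean count of at least 50, were extreme per length, were not tested, or were chosen for their role. Promoters came from RefSeq on GRCh38.p14 and gene positions from GENCODE release 44. The miRNA files were not used.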

Additional observations from a re-analysis of the deposited data

Results flagged for a closer look

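The responses of the lines were tested against each other with an interaction term over all 18 libraries in edgeR, as the HT-29 response less the Caco-2 response. For CoCl2, 6 members (7.89%) differed past both limits, 1 higher and 5 lower. Of all 17921 genes tested, 3874 did so, 7.79% higher and 13.8% lower. MRPS26 differed by -2.37, MRPL17 by -1.53, MRPL15 by -1.31, MRPS17 by -1.27 and MRPL58 by -1.02 log2 units, and MRPS6 by 1.56. MRPL58 did not reach a difference of 1 with DESeq2's size factors (-0.91) or DESeq2 (-0.92). For OD, 2 members (2.63%) differed past both limits, MRPS26 by -2.16 and MRPL1 by -1.24 log2 units. Of all 17921 genes tested, 2724 did so, 8.96% higher and 6.24% lower. Line and culture state cannot be told apart in these differences.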

How the results depend on the processing

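On library size alone the sign turned with CoCl2 in HT-29 for MRPL44 (-0.42), MRPL23 (-0.28), MRPS36 (-0.18) and MRPS12 (-0.59), with CoCl2 in Caco-2 for MRPS22 (-0.052) and MRPS12 (-0.16), and with OD in Caco-2 for MRPL55 (-0.10) and DAP3 (-0.11). MRPS12 with CoCl2 in HT-29, near 0, was -0.014 without a filter, -0.063 with all 18 libraries in 1 fit, and -0.045 and -0.047 with limma at a pseudocount of 1 and 0.1. No other log2 fold change of a single gene given above changed sign, apart from the leave-one-out ranges below. On library size alone the members called were 7 for CoCl2 and 1 for OD against control in Caco-2, 22 for CoCl2 against control in HT-29, and 1 (Caco-2) and 8 (HT-29) for CoCl2 against OD. These counts stand without the share of all genes called on that scaling and are not read as particular to the members. The member medians were then -0.26 (CoCl2, Caco-2), -0.21 (OD, Caco-2), -0.59 (CoCl2, HT-29), -0.45 (OD, HT-29), -0.039 and -0.16 (CoCl2 against OD, first Caco-2, then HT-29) and -0.39 (difference between lines, CoCl2). The medians of all genes were -0.35, -0.18, -0.66, -0.13, -0.17, -0.56 and -0.33 in the same order. The median for CoCl2 in HT-29, near 0, was -0.017 without a filter, -0.064 with all 18 libraries in 1 fit, and -0.044 and -0.049 with limma at a pseudocount of 1 and 0.1. That for CoCl2 against OD in HT-29 was 0.29, 0.25, 0.24 and 0.26 in the same order. With limma at a pseudocount of 1, 1 member was called with OD in each line, and the HT-29 OD median was -0.29. For the CoCl2 difference between lines the median was -0.078 with DESeq2's size factors and -0.083 with DESeq2, and for the control cells -0.086 and -0.10. Without the 100 most abundant genes the summed shares were 0.480%, 0.454% and 0.426% in Caco-2 (control, CoCl2, OD) and 0.462%, 0.352% and 0.351% in HT-29.

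Leaving out 1 library at a time gave 3 to 5 called members for CoCl2 in Caco-2 (5 without control replicate 1, CoCl2 replicate 1 or CoCl2 replicate 3), 1 to 2 for OD in Caco-2 (1 without OD replicate 1), 1 to 3 for OD in HT-29, 0 to 1 for CoCl2 against OD in Caco-2 (1 without CoCl2 replicate 1 or 2, or OD replicate 1 or 2) and 3 to 5 in HT-29 (5 without OD replicate 3). Medians ran from -0.17 (without OD replicate 1) to -0.026 (without OD replicate 2) for OD in Caco-2, from 0.038 (without CoCl2 replicate 1) to 0.075 for CoCl2 in Caco-2, from 0.079 (without OD replicate 3) to 0.21 (without OD replicate 1) for CoCl2 against OD in Caco-2, from -0.26 to -0.12 (without Caco-2 OD replicate 1) for the OD difference between lines, from 0.014 (without control replicate 1) to 0.080 (without CoCl2 replicate 2) for CoCl2 in HT-29, from -0.32 to -0.28 for OD in HT-29, from 0.33 to 0.37 for CoCl2 against OD in HT-29 and from -0.024 to 0.018 for the control cells. The OD changes in Caco-2 that did not pass the test ran from -0.029 to 0.10 for DAP3 (lowest without OD replicate 1) and from -0.062 to 0.14 for MRPL55 (lowest without OD replicate 3). The replicate numbers did not pair the libraries: same-number deviations correlated between -0.112 and 0.120, 1 of 18 pairs was over 0.1, and 5 of 18 libraries correlated best with their own number. With the replicate block 3 members were called for CoCl2 in Caco-2, no count moved by over 1.5 times, and among single genes 1 test was lost, MRPS2 with OD in Caco-2 (adjusted p = 0.0522). Members with few counts are limited by depth, and Caco-2 and HT-29 differ in more than the treatment.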
